A study of Mus musculus with 6 samples.

Results

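Epithelial junction and adhesion genes encode the proteins that hold the cells of the intestinal lining to each other and to the basement membrane. The set described here has 36 genes, found by symbol through their Ensembl identifiers among the 46078 genes of each count table: 10 claudins, 8 other tight junction genes, 4 genes of the adherens junction and lateral membrane, 6 desmosome genes, 5 hemidesmosome genes and 3 keratins of simple epithelium. Their RNA was measured by sequencing in adenomas of the small intestine from mice of 18 weeks on a C57BL6/SV129 strain. All 6 mice carried ApcMin/+, a truncating germline allele of the Wnt pathway regulator Apc. The knockout group, miR-34a/b/c-/-;ApcMin/+, had 3 mice without the miR-34 microRNAs. The wild-type group, miR-34a/b/c+/+;ApcMin/+, had 3 mice that kept them. Each library was made from 3 tumors of 1 mouse, so the mouse is the replicate, and no tissue outside the tumors was compared. Each tumor is a mixture of epithelium, stroma and immune cells.

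Tight junctions seal the space between neighbouring epithelial cells near the apex. Claudins form their strands, and some, such as claudin 2 and claudin 15, make pores for small cations, whereas others tighten the seal. Below them, adherens junctions tie cadherins to actin through catenins, and desmosomes tie desmogleins and desmocollins to keratin filaments through plakoglobin, plakophilins and desmoplakin. Hemidesmosomes bind the cell to laminin in the basement membrane through integrin α6β4. The microRNAs miR-34a, miR-34b and miR-34c are induced by p53 and bind transcripts through a shared seed. In textbook accounts they oppose the epithelial to mesenchymal transition, in which junction genes are turned off.

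The sequences below show the seed that the knockout mice lack and where whole or partial matches to it occur in the measured genes. The mature microRNAs from RefSeq (build GRCm38.p6) are written 5′ to 3′ with the seed, bases 2 to 8, in capitals. miR-34a-5p lies on the plus strand at chr4:150068473-150068494 and miR-34b-5p on the minus strand at chr9:51103610-51103632.
miR-34a-5p: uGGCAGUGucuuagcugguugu
miR-34b-5p: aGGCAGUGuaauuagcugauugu
Matches to the seed (CACTGCC, CACTGCCA or ACTGCCA, transcript strand only, with an overlapping match counted once) were sought in the longest 3′ UTR of a protein-coding transcript of each gene in GENCODE M21. Of 35 tested genes, 4 held a match (11.4%), against 22.8% of 14694 tested genes with a 3′ UTR. The median 3′ UTR had 989 bases in the junction genes and 1141 bases in all of those genes. The 4 genes were Cldn18, Cxadr, Ctnnd1 and Dsc2, with 1 match each. In Cxadr and Dsc2 the match was CACTGCC, the complement of the whole seed. In Cldn18 and Ctnnd1 it was ACTGCCA, which lacks the pairing with base 8. Windows of 30 bases that end with the match, which is in capitals, are shown for 3 of them, on the strand of the transcript: minus strand chr9:99691637-99691666 for Cldn18, plus strand chr16:78337484-78337513 for Cxadr and minus strand chr2:84602780-84602809 for Ctnnd1 (mm10).
Cldn18: gtgtgtctggcatagctacagttACTGCCA
Cxadr: agatttatgggtctgtagctaaaCACTGCC
Ctnnd1: ttcttcgctggactattgtgccaACTGCCA
A match is only a run of letters and was not tested as a binding site. The 4 genes had log2 fold changes, knockout over wild-type, of -0.34 for Cldn18, 0.07 for Cxadr, -0.15 for Ctnnd1 and 0.06 for Dsc2. Their median was -0.04, and it was -0.05 for the 31 without a match. Over all tested genes with a 3′ UTR the medians were 0.06 with a match and 0.01 without. These differences were not tested.

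Library totals ranged from 26375035 to 38354355 counts, and the 36 genes took between 1.62% and 2.1% of them. Mir34a, Mir34b and Mir34c had 0 counts in each library of both groups, so the tables cannot be used to check which mice were knockouts. The small intestinal epithelium named in the labels was present in each library. Vil1 (villin, of the brush border) had 771 to 1616 CPM, and Cdx2, an intestinal transcription factor, had 91.9 to 148 CPM. CPM, the count per one-millionth of the library, is given here after scaling by trimmed mean of M values (TMM). Hoxb13, a gene of the distal colon, had 0 counts in each library, which allows up to 3 counts in each. By their Y-linked transcripts, knockout replicate 2 and wild-type replicate 3 came from male mice and the other 4 from females. On the first principal component of all genes (40.8% of the variance), knockout replicates 1 and 3 scored -53.0 and -49.2, against 27.1 for knockout replicate 2 and -0.284, 58.5 and 16.9 for the wild-type replicates.

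The genes covered a wide range of levels, compared here as CPM per kilobase of merged exons, averaged over the 6 libraries. Keratins and Epcam were the most abundant. Krt8, the type II keratin of simple epithelium, had 2119 CPM per kilobase and rank 10 of 17192 tested genes with a length. Krt19 had 1317 (rank 23), Epcam 1049 (rank 31) and Krt18, the type I partner of Krt8, 654 (rank 50). Cldn7 led the claudins with 287 (rank 123), and Cdh17 had 270.3 (rank 134). F11r led the other tight junction genes with 109.9, Dsp the desmosome with 101 and Itga6 the hemidesmosome with 51.0. At the low end, Cldn18, Cldn8 and Cldn1 had 1.58, 0.835 and 0.709 CPM per kilobase. Col17a1, a collagen of stratified epithelium hemidesmosomes, had 4, 6 and 9 counts in the knockout and 10, 10 and 11 counts in the wild-type libraries and was the single member that did not pass the count filter. Its groups did not overlap, but these counts are low and the difference was not tested. Among 8 other markers of stratified epithelium, Krt5 had 0 to 8 and Trp63 1 to 11 counts per library, whereas Krt14 had 84 to 1029 and Krt4 27 to 303.

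**Figure D1:**
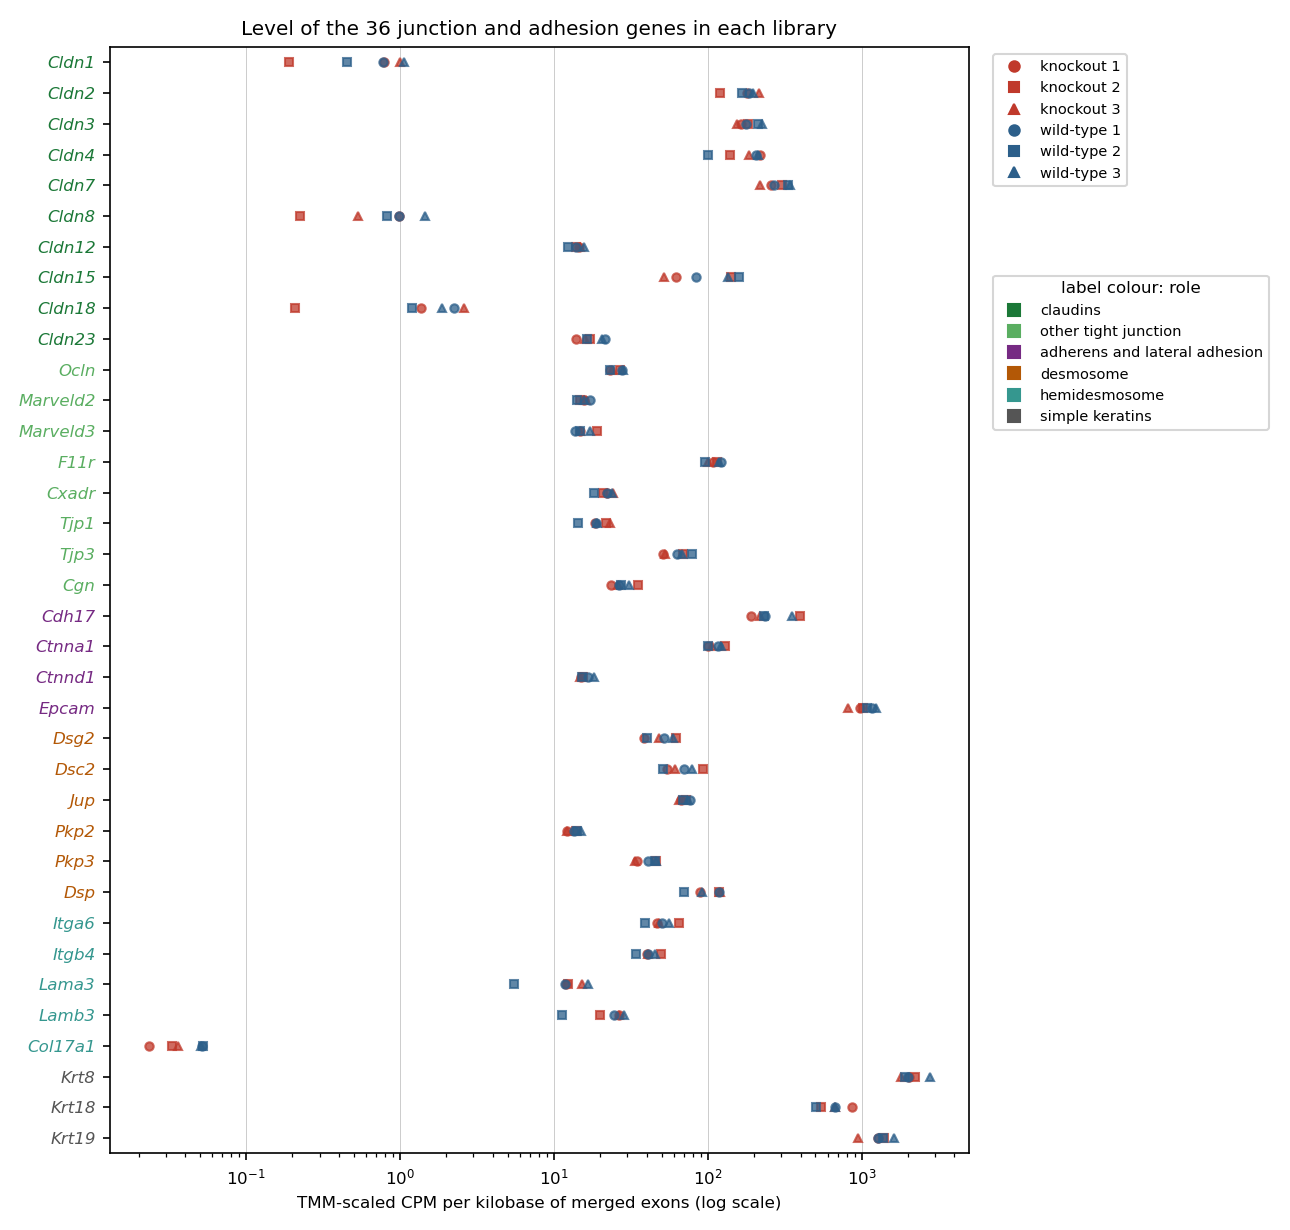
TMM-scaled CPM per kilobase of merged exons on a log axis for the 36 genes, with 1 point per library (red knockout, blue wild-type, symbol for replicate number) and label colour for role. Krt8, Krt19 and Epcam lie highest, and Cldn1, Cldn8, Cldn18 and Col17a1 lie below the other 32 genes.

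The comparison asked whether these genes differed between tumors with and without the miR-34 family. None of the 35 tested genes passed at an adjusted p below 0.05 (edgeR quasi-likelihood test, Benjamini-Hochberg over 17254 genes), where 0.0927% of all genes tested passed, 0.0406% with higher and 0.0522% with lower values in knockout tumors. At an unadjusted p below 0.05 the count was also 0, where 5.85% of all genes passed, and the lowest adjusted p of a member was 0.793 (Cldn3 and Cldn23). Without knockout replicate 2, the unadjusted count was 5 of 36 and the lowest adjusted p was 0.156 (Cldn15, edgeR). The share of all genes below 0.05 in that fit is not given here, so 5 of 36 cannot be read as an excess. DESeq2 called 0 of the 35 and 0.638% of all genes. The 3 knockout and 3 wild-type values did not overlap for 1 of the 35, Epcam, where 11.2% of all genes tested did not overlap, 5.86% in the higher and 5.34% in the lower direction. By sign, 13 of the 35 were higher and 22 lower in knockout tumors, and the median log2 fold change was -0.05, where all genes tested had 0.01. With library size alone as the scaling the split was 19 higher and 16 lower. Leaving out wild-type replicate 2 gave 6 higher and 29 lower with a median of -0.16, and leaving out wild-type replicate 3 gave 18 higher and 17 lower with a median of 0.04. In these bulk samples fewer cells of a type and less RNA per cell cannot be told apart.

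**Figure D2:**
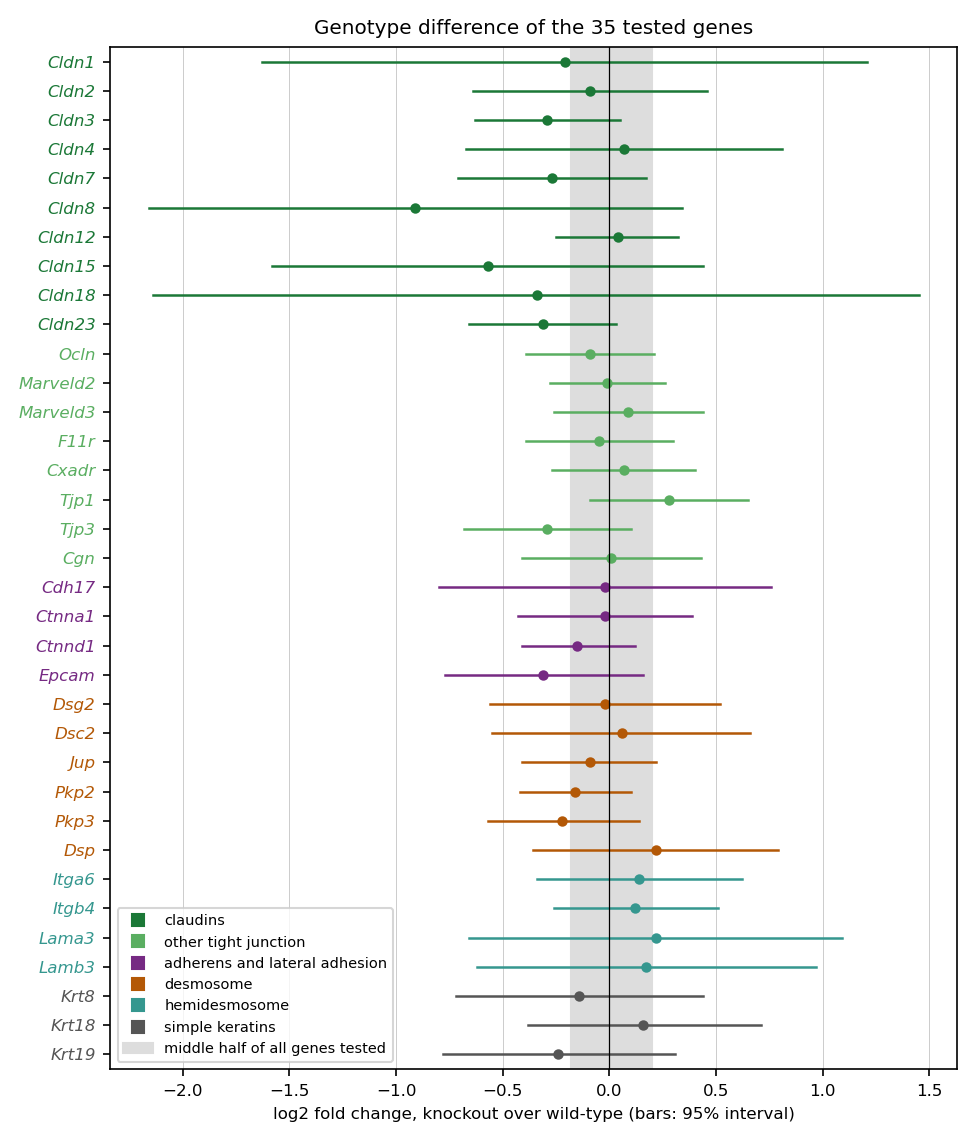
Log2 fold change, knockout over wild-type, of the 35 tested genes with 95% intervals from the edgeR fit, coloured by role. The grey band runs from the lower to the upper quartile of all genes tested (-0.18 to 0.20), and each interval includes 0.

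Among the claudins, 8 of 10 had negative log2 fold changes, with a median of -0.28 and none passing. Cldn7, which binds EpCAM at the lateral membrane (chromosome 11, 69964779 to 69967885), had 499, 595 and 426 CPM in knockout and 523, 650.0 and 662 CPM in wild-type tumors. Knockout replicate 2 lay among the wild-type values and the other two lay below them. Its log2 fold change was -0.27 ± 0.19 (SE, adjusted p = 0.813, edgeR). Cldn3, a sealing claudin and a receptor of a clostridial enterotoxin (chromosome 5, 134986214 to 134987472), had 205, 230.3 and 194 against 223, 266 and 283 CPM. Its difference of -0.29 ± 0.14 had a 95% interval from -0.63 to 0.05 (adjusted p = 0.793, edgeR). Cldn23 (chromosome 8, 35824709 to 35826559) had 25.8, 31.7 and 29.6 against 39.9, 30.5 and 38.0 CPM, a difference of -0.31 ± 0.15 with an interval from -0.66 to 0.03. In both genes the groups overlapped through 1 pair of libraries, knockout replicate 2 with wild-type replicate 1 for Cldn3 and knockout replicate 2 with wild-type replicate 2 for Cldn23.

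The summed CPM of the 10 claudins was 1930.3, 1872 and 1887 in knockout and 2033, 2081 and 2388 in wild-type libraries. The groups did not overlap in this sum, which was not tested. With library size alone they did, at 2076, 1710.3 and 2049.9 against 2088, 1975 and 2282 CPM. The intestinal epithelium markers overlapped between groups. The sum of Vil1, Cdx1, Cdx2, Epcam, Cdh1, Lgals4, Krt20 and Gpa33 was 7168 to 10231 CPM in knockout and 8694 to 10864 CPM in wild-type libraries, and each of the 8 had a negative log2 fold change (median -0.21). Knockout replicate 2 had the lowest claudin sum but the second highest sum of these markers. The sum of leukocyte markers did not overlap, at 276 to 486 CPM in knockout and 714 to 916 CPM in wild-type libraries. That gap came from Cd74, an antigen presentation gene, at 152 to 361 against 597 to 781 CPM. Of the 8 leukocyte markers, 5 were lower and 3 higher, and Ptprc had a log2 fold change of -0.05. Apart from Cd74, only Adgre1 had groups that did not overlap, and it was higher in knockout libraries. Fibroblast markers overlapped, at 744 to 2695 against 476 to 1367 CPM, 8 of 10 higher. Higher in knockout libraries were endothelial markers at 279 to 389 CPM in knockout and 175 to 228 CPM in wild-type libraries, 6 of 6 higher, and smooth muscle markers at 524 to 628 against 203 to 471 CPM, 6 of 6 higher. The part of these lists in the claudin values was not tested.

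The pore-forming claudins did not peak in the same mice. Cldn2, the cation pore claudin of crypts (chromosome X, 139800828 to 139811386), had 599.9, 399 and 711 CPM in knockout and 618, 551 and 651 CPM in wild-type tumors. Cldn15, its counterpart that is also abundant on villi (chromosome 5, 136966616 to 136975858), had 132, 302 and 109 against 178, 341 and 289 CPM. Knockout replicates 1 and 3 were the lowest 2 of 6 for Cldn15, and knockout replicate 2 the lowest for Cldn2. The log2 fold change of Cldn15 was -0.57 ± 0.43 with an interval from -1.58 to 0.44 (adjusted p = 0.813, edgeR). Without knockout replicate 2 it was -1.16 ± 0.28 (adjusted p = 0.156, edgeR), and without knockout replicate 3 it was -0.32. The ratio of Cldn2 to Cldn15 per kilobase went from 0.843 in knockout replicate 2 to 4.15 in knockout replicate 3, and from 1.03 to 2.22 in the wild-type libraries.

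The claudins with the widest spread were those of low level, and knockout replicate 2 was the lowest library for Cldn18, Cldn1 and Cldn8. Cldn18, the claudin of stomach and lung (chromosome 9, 99689461 to 99717267), had 6.06, 0.925 and 11.6 CPM in knockout and 10.03, 5.32 and 8.34 CPM in wild-type tumors. Its value in knockout replicate 2 rested on 28 counts, and the highest library had 12.6 times the lowest. Cldn1, a sealing claudin (chromosome 16, 26356642 to 26371841), had 3.81, 0.925 and 4.82 against 3.73, 2.20 and 5.12 CPM. Cldn8, a claudin of distal colon and kidney (chromosome 16, 88560828 to 88563183), had 2.33, 0.528 and 1.25 against 2.33, 1.95 and 3.41 CPM. Its log2 fold change of -0.91 ± 0.53 was the largest in size among the 35 (interval -2.16 to 0.34, adjusted p = 0.804, edgeR), and it was -0.53 without knockout replicate 2 and -1.52 without knockout replicate 1. Without knockout replicate 2 the log2 fold changes of Cldn18 and Cldn1 turned from -0.34 and -0.21 to 0.17 and 0.23.

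Knockout replicate 2 also had the lowest sum of gastric mucosa markers, mainly through Muc6. Their sum was 367.5 CPM in that library and 698 to 1174 CPM in the other 5. Muc6, a mucin of gastric and duodenal glands, had 171 CPM in knockout replicate 2 and 527 to 950.3 CPM in the other 5, where it made up most of the sum. Gkn1, a gastric surface cell gene, was highest in that library at 155 CPM (41.2 to 115 CPM in the others), so the list did not move as one. Tff2, Gkn2 and Muc5ac were lowest in wild-type libraries, whereas Tff1, Atp4a and Gif were lowest in knockout replicate 2. Gif, a gastric vitamin B12 binding factor, had 0 counts in knockout replicate 2, none of the 8 was at 0 in all libraries, and the list's part in the Cldn18 values was not tested. Beside Cldn8, the colon markers Hoxb13 and Car1 were at 0 counts and at 0 to 13 counts per library.

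**Figure D3:**
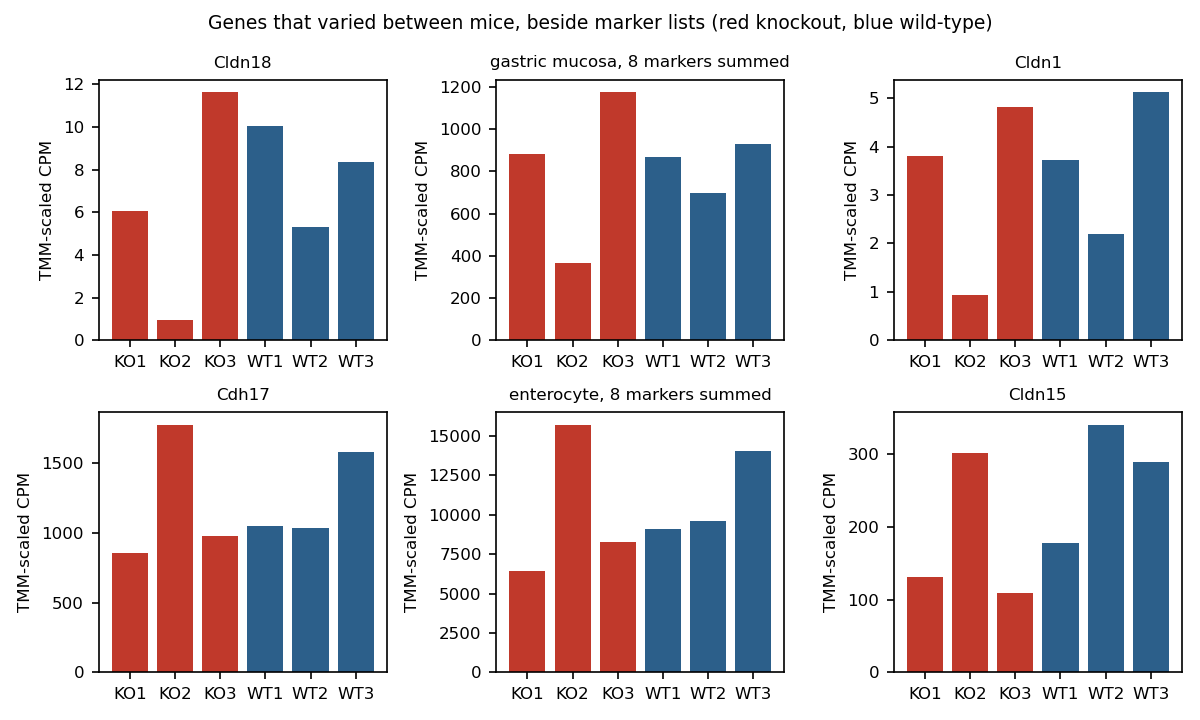
TMM-scaled CPM in each library for Cldn18, Cldn1, Cdh17 and Cldn15 and the summed CPM of the gastric mucosa and enterocyte marker lists (red bars knockout, blue bars wild-type, axes from 0). Knockout replicate 2 is lowest for Cldn18, Cldn1 and the gastric sum, and highest for Cdh17 and the enterocyte sum. Its low gastric sum comes mainly from Muc6.

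Cldn4, also a receptor of the clostridial enterotoxin (chromosome 5, 134945119 to 134946934), had 395, 253 and 337 CPM in knockout and 376, 182 and 382 CPM in wild-type tumors, with the lowest value in wild-type replicate 2. Cldn12 differed least between mice among the claudins, with 52.3 to 66.4 CPM and a log2 fold change of 0.04 ± 0.12.

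The other tight junction genes were close between genotypes, with 4 of 8 on each side of 0 and a median of 0.00 to 2 decimals. Ocln, the strand protein occludin, had 98.2, 114 and 100.1 against 117, 97.3 and 118 CPM. The tricellular junction protein Marveld2 had 47.7 to 58.3 CPM over the 6 libraries and Marveld3 had 45.1 to 62.9 CPM. F11r, the immunoglobulin-like adhesion molecule JAM-A (chromosome 1, 171437535 to 171464603), had 289, 307 and 269 against 323, 255 and 314 CPM, a log2 fold change of -0.05 ± 0.15 with an interval from -0.39 to 0.30. Cxadr, the coxsackievirus and adenovirus receptor, had 135 to 179.7 CPM. Its exons share 695 bases with Btg3 on the other strand, with 827 counts in all for Btg3 against 32651 for Cxadr.

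The plaque scaffolds had the largest differences of this group, in opposite directions. Tjp1, which encodes ZO-1 (chromosome 7, 65296165 to 65371239), had 145, 170.1 and 181 CPM in knockout and 148, 112 and 149 CPM in wild-type tumors. Knockout replicate 1 lay among the wild-type values and the other two lay above them. The log2 fold change of 0.28 ± 0.16 was the largest positive value among the 35 (interval -0.09 to 0.65, adjusted p = 0.802, edgeR). Tjp3, which encodes ZO-3, had 190.3, 255 and 195 against 235, 295 and 253 CPM (log2 fold change -0.29 ± 0.17). It shares 40 exon bases with Apba3 on the other strand, with 6978 counts for Apba3 against 47195 for Tjp3. Cgn, cingulin, had 141 to 212 CPM and a log2 fold change of 0.01 ± 0.18. A transcript 98.7% identical to it over 1716 bases, BC021767, had 434 counts in all, so the value of Cgn is uncertain as far as reads were split between them.

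Epcam, the homophilic adhesion molecule of simple epithelia (chromosome 17, 87635979 to 87651106), was the 1 tested gene whose groups did not overlap. It had 2136, 2244 and 1792 CPM in knockout and 2564, 2357 and 2716 CPM in wild-type tumors. The log2 fold change was -0.31 ± 0.20 with an interval from -0.77 to 0.16 (adjusted p = 0.805, edgeR), so it did not pass the test. With library size alone the groups overlapped, since knockout replicate 1 had 2297 CPM and wild-type replicate 2 had 2237 CPM. Epcam is also 1 of the 8 intestinal epithelium markers given above.

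The other genes of this group had log2 fold changes of -0.15 to -0.02. Cdh17, the liver-intestine cadherin (chromosome 4, 11758147 to 11817895), had 853, 1773 and 975 CPM in knockout and 1044, 1034 and 1577 CPM in wild-type tumors, a log2 fold change of -0.02 ± 0.33 (interval -0.80 to 0.76). Its 2 highest libraries were knockout replicate 2 and wild-type replicate 3. These were also the highest for 8 enterocyte markers summed, at 15702 and 14057 CPM, where the other 4 libraries had 6413 to 9615 CPM. They are the libraries of the male mice. With 1 male in each group, sex and the single mouse cannot be told apart within a group, and the difference between sexes over all 6 mice was not tested. In 11 of the 35 genes those libraries were the highest 2 of 6 (Marveld3, Cgn, Cdh17, Ctnna1, Dsg2, Dsc2, Pkp3, Itga6, Itgb4, Krt8 and Krt19), which was so for 10.03% of all genes tested. This count was made after the values were seen. Ctnna1, α-catenin, had 643, 827 and 680.1 against 748, 648 and 781 CPM, and Ctnnd1, p120 catenin, 109.8, 114 and 108 against 122, 112 and 133 CPM. The exons of Ctnnd1 share 4482 bases with Gm28635 on the same strand, which had 0 counts in all. The value of Ctnnd1 is uncertain as far as reads in the shared bases were left uncounted.

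In the desmosome group 2 of 6 genes were on the positive side and the median was -0.06. Dsp, desmoplakin, which links the plaque to keratin (chromosome 13, 38151328 to 38198577), had 856, 1143 and 1151 CPM in knockout and 1144, 675 and 890.1 CPM in wild-type tumors. The highest values of both groups were alike, and wild-type replicate 2 was the lowest. Its log2 fold change was 0.22 ± 0.24 (interval -0.36 to 0.79), and it was 0.04 without wild-type replicate 2. Dsg2 and Dsc2, the desmoglein and desmocollin of simple epithelium, had 320.3, 514 and 399.6 against 430.1, 331 and 489 CPM and 285, 491 and 324 against 371, 270.4 and 415 CPM. Jup, plakoglobin, had the narrowest spread of the 35 genes, from 420.3 to 490.5 CPM. The plakophilins Pkp2 and Pkp3 had log2 fold changes of -0.16 ± 0.11 and -0.22 ± 0.15.

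Hemidesmosome genes all had positive log2 fold changes in the 4 that were tested, with a median of 0.16 and none passing. Wild-type replicate 2 was the lowest library for each of the 4. Lama3, the α3 chain of the hemidesmosomal laminin, had 129, 132 and 163 CPM in knockout and 126, 58.7 and 179.9 CPM in wild-type tumors. Lamb3, its β3 chain (chromosome 1, 193207699 to 193343878), had 174, 131 and 176 against 163, 74.2 and 190.0 CPM. The knockout values of both genes lay inside the wild-type range. Without wild-type replicate 2 their log2 fold changes went from 0.22 ± 0.37 and 0.17 ± 0.34 to -0.12 and -0.14. Itga6 (chromosome 2, 71745616 to 71858416) had 424, 588 and 436 against 457, 353 and 502 CPM, and Itgb4 had 282, 350.4 and 288 against 289, 238 and 317 CPM. Their log2 fold changes of 0.14 ± 0.20 and 0.12 ± 0.16 were 0.01 and 0.02 without wild-type replicate 2, and -0.02 and 0.02 without knockout replicate 2. In wild-type replicate 2 the sum of fibroblast markers was also lowest, at 476 CPM where the other 5 libraries had 744 to 2695 CPM. The sum of the markers of stratified epithelium was lowest there too, at 8.53 CPM against 19.8 to 49.5 CPM. Krt14 was lowest in that library (2.64 CPM) but Krt15 was highest (1.29 CPM), so the stratified list did not move as one. The part of these lists in the laminin values was not tested.

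The keratins were split. Krt8 (chromosome 15, 101996711 to 102004342) had 3979, 4339 and 3517 CPM in knockout and 3921, 3727 and 5410.5 CPM in wild-type tumors, a log2 fold change of -0.14 ± 0.25. Krt18 (chromosome 15, 102028216 to 102032026) had 1234, 776 and 969.6 against 969, 726 and 966 CPM, a log2 fold change of 0.16 ± 0.23. Krt19, a second type I partner (chromosome 11, 100140810 to 100148665), had 2358, 2604 and 1764 against 2366, 2549.5 and 3017 CPM, a log2 fold change of -0.24 ± 0.23. Wild-type replicate 3 was the highest for Krt8 and Krt19 but not for Krt18, where knockout replicate 1 was.

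**Figure D4:**
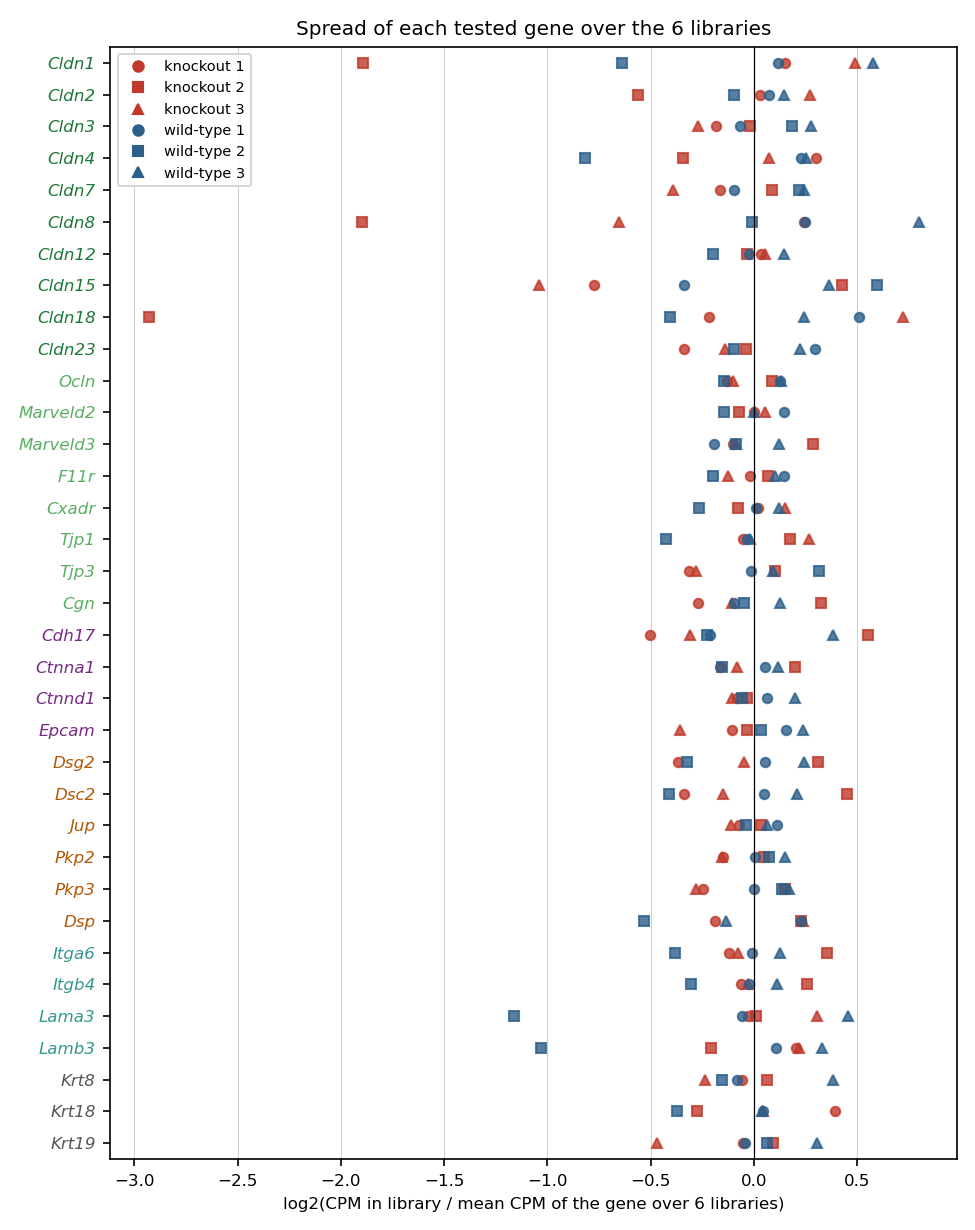
Log2 ratio of each library's CPM to the mean of the 6 libraries for the 35 tested genes, with 1 point per library (red knockout, blue wild-type, symbol for replicate number). Knockout replicate 2 lies far to the left for Cldn1, Cldn8 and Cldn18, and wild-type replicate 2 for Lama3 and Lamb3.

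In 4 of the planned pairs of partner or related genes the ratio varied less between libraries than either gene. In the pair of Krt8 and Krt18 it varied more. Among the pairs added later, Krt8 to Krt19 varied less (1.36-fold). Cldn2 to Cldn15 varied more, by 4.92-fold where the genes alone spanned 1.78-fold and 3.11-fold. The ratio of Itga6 to Itgb4, taken per kilobase within a library, ranged from 1.16 to 1.31, that of Dsg2 to Dsc2 from 0.668 to 0.786 and that of Cldn3 to Cldn7 from 0.599 to 0.704. In these ratios the highest library had 1.13, 1.18 and 1.17 times the lowest. Itga6 alone varied 1.66-fold over the 6 libraries and Dsc2 1.82-fold. Lama3 to Lamb3 ranged from 0.455 to 0.620, a 1.36-fold span, where the genes alone spanned 3.06-fold and 2.56-fold. Krt8 to Krt18 went from 2.37 in knockout replicate 1 to 4.11 in wild-type replicate 3, a 1.74-fold span, where Krt8 alone spanned 1.54-fold and Krt18 1.70-fold, while Krt8 to Krt19 ranged from 1.39 to 1.89. The last ratio and that of Cldn2 to Cldn15 were added after the values were seen. No ratio was tested between genotypes, and the ranges of the groups overlapped in each of the 7.

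**Figure D5:**
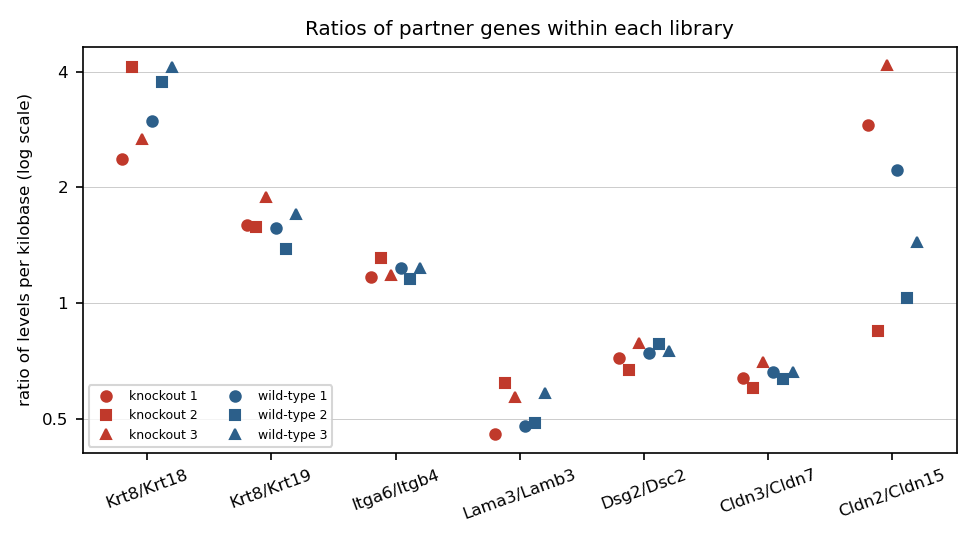
Ratio of levels per kilobase on a log axis for 7 pairs of genes, with 1 point per library (red knockout, blue wild-type, symbol for replicate number). The Itga6 to Itgb4 ratio stays between 1.16 and 1.31, and the Cldn2 to Cldn15 ratio spans from 0.843 to 4.15.

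Over the 6 libraries the junction genes spread about as much as other genes. Among 32 members with a mean of at least 10 CPM, the highest library had a median of 1.54 times the lowest, where the 10037 tested genes of that level had 1.46 times. The ratio was above 2 for 5 of the 32 (Cldn4, Cldn15, Cdh17, Lama3 and Lamb3), which is 15.6%, against 18.1% of those genes. By library, wild-type replicate 2 was the lowest of 6 for 14 of the 35 genes, knockout replicate 3 for 10 and wild-type replicate 3 for none, and wild-type replicate 3 was the highest for 14.

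A second list held 96 further junction, polarity and basement membrane genes, of which 81 were tested. Again 0 passed (edgeR), with 6 of 81 at an unadjusted p below 0.05, where 5.85% of all genes tested were. Of the 81, 50 were higher and 31 lower in knockout tumors, and the median log2 fold change was 0.11. The groups did not overlap for 7 in the higher and 1 in the lower direction, where all genes tested had 5.86% and 5.34%. Lamb1, a laminin β chain made largely by stroma, had 102, 75.2 and 165 CPM in knockout and 56.5, 35.5 and 69.2 CPM in wild-type tumors. Its log2 fold change was 1.09 ± 0.35 (adjusted p = 0.793, edgeR). Jam3, an adhesion molecule of endothelium and other cells, had 5.53, 4.72 and 5.95 against 3.48, 2.93 and 3.75 CPM, and endothelial markers lay the same way as given above. Dsc3, the desmocollin of stratified epithelium, had 31.6, 37.0 and 23.1 against 17.2, 2.67 and 7.56 CPM (log2 fold change 1.74 ± 0.60, adjusted p = 0.793, edgeR). The summed markers of stratified epithelium had 22.7 to 49.5 against 8.53 to 41.7 CPM. The 6 of them that were tested were split, with 3 higher and 3 lower (median 0.16). Lsr, the tricellular junction receptor angulin 1, had 132, 118 and 123 against 147, 138 and 145 CPM (log2 fold change -0.21 ± 0.11). Part of this list is made by cells other than epithelium, and 12 of its 14 basement membrane and hemidesmosome genes were higher (median 0.37). Beside them, 8 of 10 fibroblast markers were higher (median 0.74), and their part was not tested. The classical partners of the adherens junction, named after their values were seen, had values like those of Ctnna1: Cdh1, E-cadherin, had a log2 fold change of -0.03 ± 0.24 and Ctnnb1, β-catenin, one of -0.02 ± 0.18.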

How the data were processed

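The authors deposited 1 table of raw gene counts for each library. The submitters' processing notes list TopHat2 2.1.0, HTSeq 0.6.1 and build mm10. The sources used here do not give how strand and multiple alignments were handled or which annotation was used. Symbols and exon lengths came from GENCODE M21 (45143 of 46078 identifiers matched). Genes were filtered with filterByExpr (17254 left), scaled by TMM and tested in edgeR (4.0.16, R 4.3.3) with its robust quasi-likelihood fit on genotype alone. SE is the log2 fold change over the square root of F, and 95% intervals use the t distribution of that fit. The fit was tested on simulated data. Copies were sought with BLAST 2.17.0 at 95% identity over 100 bases. The members and lists were chosen with earlier results of these data known. Values in each library were to be given for genes that passed, did not overlap, had the 5 largest differences in each direction, led their group or failed the filter, and other members were added after their values were seen. From the second list, called genes or up to 3 non-overlapping ones per direction were named. Alternatives were DESeq2 1.42.0 and its size factors, library size alone, other count filters, limma-voom (limma 3.58.1), no robust fitting, terms for replicate number or for sex, leaving out single mice, and an adjusted p of 0.1. Limits from a count of 0 cover counting error only.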

Additional observations from a re-analysis of the deposited data

How the results depend on the processing

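No junction gene passed in any of the 15 alternative fits, nor at an adjusted p of 0.1. The median log2 fold change, -0.05 in the main fit, did not keep its sign. It ran from -0.16 to 0.04 with a mouse left out and was 0.01 with library size alone. Of 35 genes, 16 kept their sign in each alternative. With library size alone the sign changed for Cldn2 (0.00), Marveld2 (0.06), F11r (0.01), Cdh17 (0.01), Ctnna1 (0.04) and Dsg2 (0.03). Marveld2 was at 0.00 with no count filter. Cgn was at -0.00 with at least 1 CPM in 3 libraries, at -0.01 with limma-voom and at -0.01 with the sex term. With a mouse left out the ranges that crossed 0 were -0.41 to 0.21 for Cdh17, -0.18 to 0.12 for Cgn, -0.66 to 0.23 for Cldn1, -0.04 to 0.13 for Cldn12, -1.19 to 0.17 for Cldn18, -0.29 to 0.11 for Cldn2, -0.21 to 0.24 for Cldn4, -0.13 to 0.05 for Ctnna1, -0.04 to 0.15 for Cxadr, -0.21 to 0.21 for Dsc2, -0.21 to 0.13 for Dsg2, -0.15 to 0.01 for F11r, -0.02 to 0.25 for Itga6, -0.03 to 0.31 for Krt18, -0.24 to 0.05 for Krt8, -0.12 to 0.61 for Lama3, -0.14 to 0.44 for Lamb3, -0.08 to 0.05 for Marveld2 and -0.05 to 0.18 for Marveld3. Over all genes DESeq2 called 110 where edgeR called 16, and 9 to 41 were called with a mouse left out. The cause was not tested.

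Deviations of same-numbered libraries from the 2 groups correlated at 0.22, 0.27 and 0.08. For 2 replicate numbers the own-number correlation was the highest that the knockout library had with a wild-type library. Whether the shared numbers paired the mice cannot be told from these correlations, and the main fit used no pairing. With the replicate block 14 genes and 0 junction genes were called, the median was -0.07 and Cgn was at -0.01. With 3 mice per group the intervals of Cldn1, Cldn8 and Cldn18 span more than a doubling, so differences of that size were not detectable. These genes rested on as few as 28, 16 and 28 counts in a library. The limit was not confined to low counts. Cldn15, with at least 3735 counts in each library, had an interval from -1.58 to 0.44. Those of Lama3 (-0.66 to 1.09) and Cdh17 (-0.80 to 0.76), among others, also span more than a doubling.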
